A study of Mus musculus with 6 samples.

Results

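The wild-type head at embryonic day 8.5 was described from 2 libraries, the wild-type members of a series of 6. The 6 libraries came from dissected C57BL/6 embryo heads of 3 Prdm15 genotypes, 2 libraries each: wild type (Prdm15 tm1a+/+), heterozygous (Prdm15 tm1a+/-) and mutant (Prdm15 tm1a-/-). Both wild-type heads carried 0 copies of the tm1a allele, and no treatment is named in the labels. PolyA-selected RNA was made into stranded paired-end libraries. The 2 wild-type libraries were chosen by their titles and read from the columns bearing those titles in the table of the whole series. They are called replicates 1 and 2 in the order in which the labels list them. The genotypes were not compared. With 1 group described there is no test, and each value is given for both libraries, with a mean ± SD where it helps.

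At this stage the front of the neural plate is folding into the brain. Otx2 marks the forebrain and midbrain, the isthmus at the midbrain-hindbrain boundary releases Fgf8, and the hindbrain is divided into segments, the rhombomeres, that express different Hox genes. Neural crest cells leave the edges of the folds and enter the mesenchyme of the face and pharyngeal arches. The beating heart tube lies just under the head, the first red cells are made in the yolk sac, and the embryo is still wrapped in extraembryonic membranes and maternal decidua.

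Levels are in RPKM, read counts scaled by gene length and library size, so genes can be compared with each other. Replicate 1 held 40439234 reads in genes and replicate 2 held 34656271. For a gene of the median length among expressed genes, 2881.5 bases, 1 RPKM stood for 119 reads in replicate 1 and 101 in replicate 2. At that length 3 reads, taken as the floor of detection, were 0.0253 and 0.0296 RPKM, so levels far under 1 RPKM were still measurable. A gene is called expressed where it had at least 1 RPKM in both libraries. Of 24062 gene symbols, 11506 met that rule, 47.8% of all, with a median level of 11.8 RPKM. Every count of expressed list members given below is to be read beside that 47.8%. The median over all symbols was 0.906 RPKM, and 5752 symbols had 0 reads in both heads. Genes are ranked within a list by the mean of the libraries.

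The 6 regional markers were all expressed. Sox2, a transcription factor of neural progenitors (3:34650405-34652461, plus strand, in GENCODE M21 on GRCm38), was at 54.0 RPKM in replicate 1 and 59.7 in replicate 2, 56.8 ± 4.03 (SD, n = 2). Sox10, a neural crest factor (15:79154908-79165240, minus strand), was at 38.3 and 47.4 RPKM. Otx2 (14:48657677-48673819, minus strand) was at 46.8 and 36.9 RPKM, 41.9 ± 6.94 (SD, n = 2). These 3 genes stood highest, and their order differed between the libraries, Otx2 being above Sox10 in replicate 1 and under it in replicate 2. Six3, of the forebrain and eye field (17:85613608-85629302, plus strand), was at 17.0 and 11.3 RPKM. Pax2, of the isthmus and eye (19:44756045-44837871, plus strand), was at 15.3 and 11.5 RPKM. Egr2, of odd-numbered rhombomeres (10:67535475-67542188, plus strand), was at 10.5 and 8.34 RPKM. Transcripts of forebrain, boundary, hindbrain, neural and crest markers were thus present in both libraries. The markers were chosen with earlier results of these data known, so their presence is no test of the head label. The gene that carries the allele in the other genotypes, Prdm15, was at 5.56 and 5.14 RPKM.

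Each head also held RNA of tissues that the other held far less of, and this bears on the results that follow. Replicate 1 had more reads of heart muscle genes: Myl7, an atrial myosin light chain, was at 37.4 RPKM against 4.44 in replicate 2. Replicate 2 had more reads of placental and decidual genes: Prl3d1, a placental lactogen of trophoblast giant cells, was at 33.6 RPKM against 0.664 in replicate 1. In bulk RNA, fewer cells of a type and less RNA per cell cannot be told apart. The part of these tissues in the other differences between the libraries was not tested. They are described with their values after the head's own genes.

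The abundant transcripts were those of protein synthesis, glycolysis, protein folding and the cytoskeleton. The 100 genes of highest mean level held 28.2% of the summed RPKM, 28.4% in replicate 1 and 28.1% in replicate 2, and 503 genes held 50% of it. Because many of them are short, the same 100 took 14.4% of the reads. Eef1a1, which brings aminoacyl-tRNA to the ribosome, was highest in both heads at 5452 and 5325 RPKM. The glycolytic enzyme gene Gapdh followed at 3675 and 3327 RPKM, and Npm1, a nucleolar chaperone of ribosome assembly, at 3015 and 2906. Ptma, Ppia, Hspa8, Hsp90ab1, Pkm, Tpt1 and Ldha were the others of the 20 highest that do not encode ribosomal proteins. The first of these, prothymosin Ptma, was at 2606 and 2520 RPKM, and Hspa8, a constitutive heat shock chaperone, was at 2348 and 2487. No gene among the 100 differed by more than 1.17-fold between the libraries, and 98 genes were shared by the libraries' own sets of 100.

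Ribosomal protein genes made up 59 of the 100 and 10 of the 20 highest: Rps2, Rplp1, Rpl41, Rps12, Rpl7a, Rplp0, Rpl12, Rpl4, Rps26 and Rpl35. As a class of 77 genes, taken by symbol, they held 17.0% of the summed RPKM in replicate 1 and 16.8% in replicate 2, with a median of 941 RPKM. Most of the proteins are used in equal numbers in a ribosome, yet listed levels ran from 6.11 RPKM for Rps27 to 2605 for Rps2. Rpl26, at 10.7 RPKM, and Rpl34, at 32.2 RPKM, were also low. Ribosomal protein genes have many processed pseudogene copies, and reads without a unique alignment, 13.3% and 12.8% of the 2 libraries, were not counted, so the levels of this class are uncertain.

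The glycolysis list, drawn up after values were seen, was expressed throughout, 22 of 22 genes at a median of 174 RPKM. Related enzymes stood at unequal levels. Ldha, the lactate dehydrogenase subunit that favours lactate formation, was at 1606 and 1552 RPKM, while Ldhb was at 18.7 and 16.8. Hk2 was at 53.0 and 49.9 RPKM and its housekeeping relative Hk1 at 8.36 and 9.08. Slc2a1, a glucose transporter, was at 395 and 327 RPKM, and Slc2a3 was close at 319 and 326. Slc16a3, which exports lactate, was at 145 and 138 RPKM. The enzyme genes Aldoa, at 1058 and 1036 RPKM, and Pgk1, at 945 and 948, were nearly equal in the heads.

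Genes of proliferating cells were high. All 24 genes of the cell cycle list were expressed, with a median of 67.1 RPKM. Cdk4, the kinase of the D cyclins, was highest at 577 and 531 RPKM. Pcna, the sliding clamp of replication, was at 319 and 324 RPKM, and Top2a, which untangles replicated chromosomes, at 143 and 141. The inhibitor Cdkn1c, itself imprinted, was at 47.5 and 44.3 RPKM, and Cdkn1a was at 1.72 and 3.47. Of the genes that maintain DNA methylation in dividing cells, Uhrf1 was at 151 and 158 RPKM and Dnmt1 at 93.4 and 95.2. Dnmt3b exceeded Dnmt3a, at 61.0 and 54.3 RPKM against 10.6 and 11.1. Tet3 was the highest of the TET genes, which oxidise methylcytosine, at 11.6 and 11.9 RPKM.

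Imprinted genes, expressed from 1 parental copy, were among the high transcripts, with 22 of 25 listed genes expressed and a median of 24.7 RPKM. Mest was at 843 and 776 RPKM and the noncoding H19 at 814 and 829; both were in the 100 highest. Igf2, the growth factor of the H19 locus, was at 325 and 311 RPKM. Grb10, which restrains growth factor signalling, was at 258 and 260 RPKM, Gnas at 231 and 237, and Nnat at 207 and 223. These 6 were at close levels in the heads. Snrpn was listed at 0 reads in both, and since its reads can be shared with an overlapping transcript that 0 is uncertain.

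Forebrain and eye field regulators were expressed as a group, 23 of 26 genes with a median of 7.95 RPKM. After Otx2, the highest were Zic2, a zinc finger factor of the neural plate, at 32.8 and 22.8 RPKM, and Otx1, at 21.3 and 18.6. Pax6, of the eye and dorsal forebrain, was at 24.8 and 13.5 RPKM. Lhx2, needed for eye and cortex formation, was at 19 and 14 RPKM. Foxd1, of the rostral forebrain and optic region, was at 11.3 and 17.1 RPKM. Rax, of the eye field, was lower, at 9.15 and 6.76 RPKM. Genes of later or narrower domains stood near the threshold: Nkx2-1, of the hypothalamus, was at 1.28 and 1.26 RPKM and Emx1 at 1.06 and 1.02. Vax2, of the ventral eye, was near the floor with 4 reads in each library.

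The forebrain genes stood higher in replicate 1. Of the 23 expressed, 21 were higher there and 2 in replicate 2, and the summed levels of the list were 279 and 216 RPKM. The median log2 ratio of replicate 1 to replicate 2 was 0.43, beside 0.01 over all 11506 expressed genes, of which 6178 were higher in replicate 1 and 5328 in replicate 2. With the count file attached to replicate 2 in place of the one that bears its title, 15 genes of the list were expressed. Most steps were small, and 1 gene of the list was over 2-fold apart, Vax1, at 2.41 and 0.952 RPKM. Of all 11871 genes with a mean of at least 1 RPKM, 75 were over 2-fold higher in replicate 1, or 0.632%, and 242 were over 2-fold higher in replicate 2, or 2.04%.

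**Figure D1:**
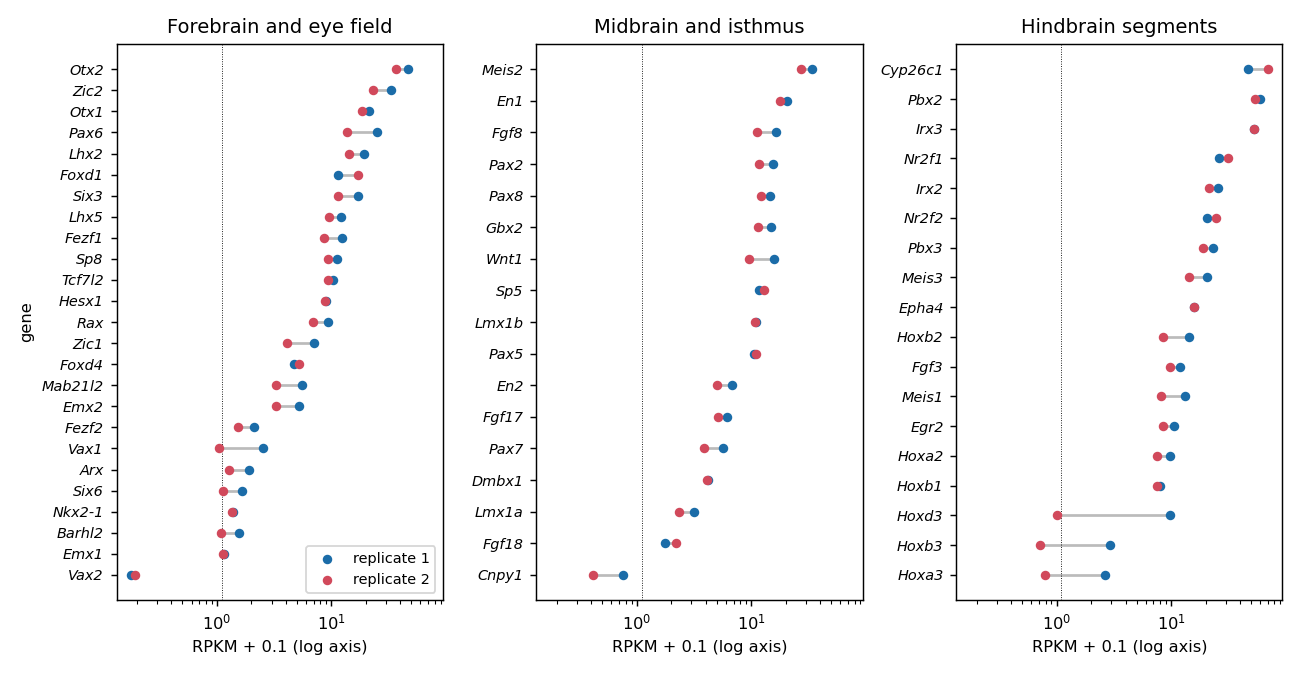
Regional regulators of the forebrain and eye field, the midbrain and isthmus, and the hindbrain. Each row is a gene, the blue and red points are its RPKM + 0.1 in wild-type replicates 1 and 2 on a log axis, and the dotted line marks 1 RPKM. Otx2, Meis2 and Cyp26c1 lead their panels, most pairs lie close together, and Hoxd3, Hoxb3 and Hoxa3 are spread widely with replicate 1 higher; not every list member is drawn.

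Midbrain and isthmus genes were expressed in 16 of 17 cases with a median of 10.8 RPKM. Meis2, a homeodomain factor also made outside the midbrain, was highest at 33.6 and 27.2 RPKM. En1, which specifies the midbrain and first rhombomere, was at 20.5 and 17.6 RPKM, and En2 was at 6.75 and 4.93. The organiser signals themselves were present, Fgf8 at 16.2 and 11.2 RPKM and Wnt1 at 15.6 and 9.49. Pax8, a partner of Pax2, was at 14.4 and 12.0 RPKM. Gbx2, the hindbrain factor whose border with Otx2 sets the isthmus, was at 14.9 and 11.3 RPKM, under Otx2 by about the same ratio in both heads. The list was higher in replicate 1 for 13 of its 16 expressed genes, with a median log2 ratio of 0.28.

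Hindbrain genes included 17 expressed of 22, 77.3% beside 47.8% of all symbols, with a median of 11 RPKM. Cyp26c1, an enzyme that degrades retinoic acid in the anterior hindbrain and arches, was highest by the mean, at 46.8 RPKM in replicate 1, where Pbx2 and Irx3 were above it, and 69.6 in replicate 2. The Hox cofactor Pbx2 was at 59.2 and 53.6 RPKM. Irx3 was at 52.4 RPKM in each head, and Irx2 at 25.7 and 21.5. The nuclear receptors Nr2f1 and Nr2f2, which are also made in mesenchyme, were at 26.0 and 31.4 and at 20.5 and 24.4 RPKM. Posterior hindbrain members were uneven: 6 of the 22 were over 2-fold higher in replicate 1, beside 0.632% of all genes. Most of the 6 were under 1 RPKM in replicate 2 and met the mean of 1 RPKM only through replicate 1. Of the 17 expressed in both, 12 were higher in replicate 1 and 5 in replicate 2. Among the 6, Hoxb3 was at 2.80 and 0.613 RPKM and Hoxa3 at 2.55 and 0.683. The summed list differed little, at 408 and 377 RPKM.

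Hox genes are switched on in the order of their place in each cluster, so that group numbers run from the hindbrain to the tail. Of 39 Hox genes in 4 clusters, 3 were expressed in both heads, 7.69% beside 47.8% of all symbols. All 3 were of paralogue groups 1 and 2. Taken alone, replicate 1 had 8 Hox genes at 1 RPKM or more and replicate 2 had 6. The 3 shared genes were Hoxb2 at 14.2 and 8.41 RPKM, Hoxa2 at 9.65 and 7.43, and Hoxb1 at 7.82 and 7.35. Hoxb1 marks a single rhombomere of the middle hindbrain, and Hoxa2 reaches the second rhombomere. Groups 3 and 4, whose forward limits lie in the caudal hindbrain, summed to 17.5 RPKM over 7 genes in replicate 1 and to 2.59 in replicate 2. Hoxd3 was at 9.76 and 0.903 RPKM (10.8-fold, 95% exact binomial interval 8.74 to 13.5). Groups 5 to 8, of trunk levels, summed to 1.47 and 1.67 RPKM over 11 genes, and none of these reached 1 RPKM. Groups 9 to 13, of the tail and limbs, summed to 0.284 RPKM over 16 genes in replicate 1 and to 11 in replicate 2. In that head Hoxa10 was at 3.83 RPKM, Hoxa11 at 3.62 and Hoxd10 at 1.69, while Hoxa13, Hoxb13, Hoxc13 and 5 others had 0 reads in both. Replicate 2 thus had transcripts of 3 posterior Hox genes at 1 RPKM or more while groups 3 to 8 were all under 1 RPKM.

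**Figure D2:**
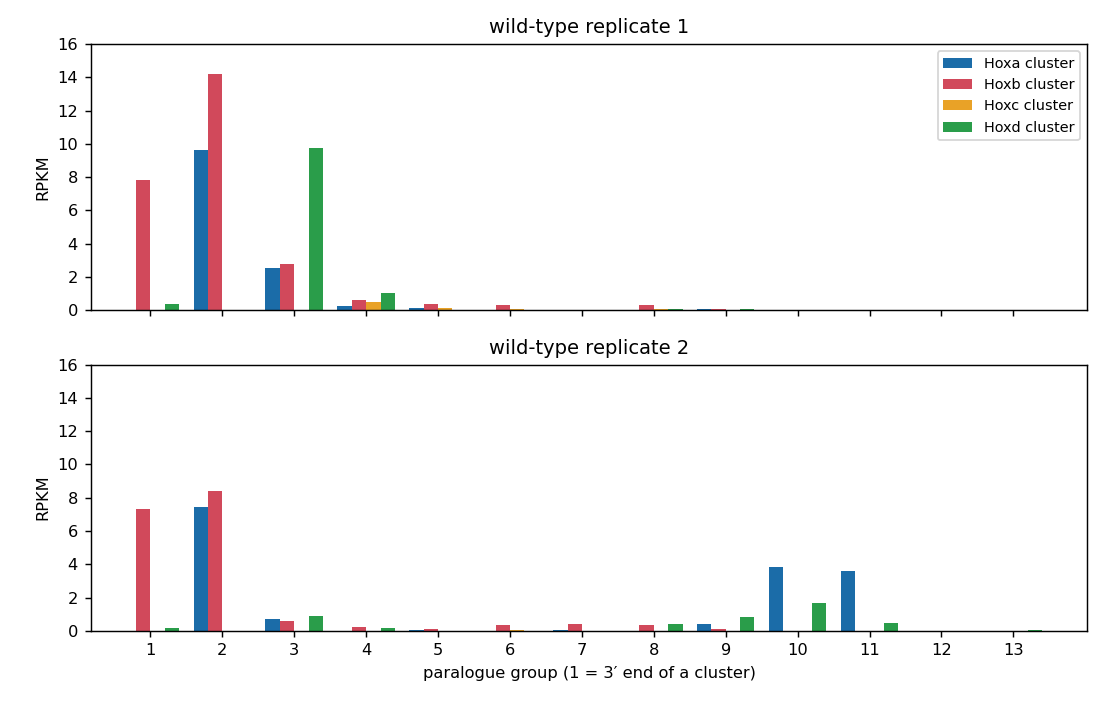
Levels of Hox genes in wild-type replicate 1 (top) and replicate 2 (bottom) in RPKM, by paralogue group, with colours for the 4 clusters; 1 gene is not drawn. Groups 1 and 2 are present in both heads, group 3 mainly in replicate 1, and Hoxa10, Hoxa11 and Hoxd10 in replicate 2.

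In the adult and pregnant uterus Hoxa10 and Hoxa11 are expressed in stroma and decidua. Decidual and trophoblast genes were present in the same head, as described further on, and their part in the posterior Hox levels was not tested. The tailbud markers Cdx2, at 0.192 and 0.0531 RPKM, and Tbx6, at 0.425 and 0.282, were under 1 RPKM in both heads. T, which marks both tailbud and notochord, was at 5.53 and 5.50 RPKM. Wnt3a, of the tailbud and dorsal neural tube, was at 2.71 and 1.41 RPKM, and Noto, of the notochord, was at 0.106 and 0.0533.

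Neural progenitor genes were even between the heads. All 24 were expressed, with a median of 19.1 RPKM, sums of 876 and 872 RPKM, and a median log2 ratio of 0.01. Lin28a, an RNA-binding protein that blocks let-7 maturation, was highest at 330 and 324 RPKM. Msi1, an RNA-binding protein of neural stem cells, was at 79.0 and 71.3 RPKM. The SoxB1 factors Sox3 and Sox1 joined Sox2, at 32.2 and 32.0 and at 21.2 and 21.7 RPKM. Cdh2, the cadherin of the neural plate, was at 56.6 and 54.7 RPKM, and Hes1, a repressor of differentiation, at 38.8 and 36.1. Vim, which mesenchyme also makes, was at 66.6 and 83.4 RPKM.

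Of 20 early neuron genes 8 were expressed, a share near the 47.8% of all symbols, with a list median of 0.95 RPKM beside 0.906 over all symbols. The highest were Sox11, at 38.2 and 38.5 RPKM, and Tubb3, at 30.6 and 30.1, which immature cells of several types express. Stmn2, a neuronal microtubule regulator, was at 17.3 and 19.4 RPKM, and Isl1, also of the second heart field and foregut, at 6.90 and 4.97. The proneural gene Neurog2, at 1.06 and 0.899 RPKM, lay at the threshold. Neurod1, at 0.0389 and 0.0343 RPKM, was near the floor, and Neurod4 had 0 reads in both heads.

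Neural crest genes were expressed in 21 of 22 cases, with a median of 12.3 RPKM and sums of 385 and 411 RPKM. Beside Sox10, the highest were Lmo4, at 66.1 and 70.7 RPKM, and Cdh11, a mesenchymal cadherin, at 33.1 and 36.8. Twist1, a factor of cranial mesenchyme, was at 30.6 and 36.9 RPKM. Snai1, which represses E-cadherin as cells leave the epithelium, was at 23.7 and 33.1 RPKM, well above its relative Snai2 at 5.18 and 4.50. Sox9 was at 25.3 and 23.4 RPKM, and the specifier Foxd3 at 9.55 and 8.76. The median log2 ratio was -0.14, so the list leaned slightly to replicate 2, opposite to the forebrain genes.

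Head mesenchyme genes were expressed in 15 of 20 cases, 75% beside 47.8% of all symbols, with a median of 5.90 RPKM. Prrx2 was at 42.3 and 41.2 RPKM. Tbx1, of the pharyngeal mesoderm and endoderm, was at 22.7 RPKM in each head. Foxc2 was at 13.8 and 13.7 RPKM and Pdgfra, the receptor of mesenchymal cells, at 12.5 and 13.7. The exceptions were Hand2, at 5.96 and 23.8 RPKM, and Meox1, a somite factor, at 12.6 and 0.684. Hand2 is made in arch crest, heart and uterine stroma, and which of them gave its reads was not tested. Surface ectoderm and placode genes were even, with 20 of 22 expressed at a median of 8.24 RPKM. Their keratins Krt18 and Krt8 were at 79.5 and 82.7 and at 72.3 and 71.5 RPKM. Epcam and Cdh1, adhesion genes of epithelia, were at 25.1 and 27.1 and at 21.3 and 23.2 RPKM.

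Axial mesendoderm and foregut genes were lower. Of 15 axial genes 8 were expressed, 53.3% and near the 47.8% of all symbols. Ntn1, a floor plate guidance cue, was at 19.2 and 22.6 RPKM, Foxa2 at 7.03 and 9.06, and Shh at 5.79 and 6.65. Dkk1, the Wnt inhibitor of the prechordal plate and facial tissue, was at 8.71 and 9.18 RPKM. Gsc, at 0.682 and 1.31 RPKM, and Nodal, at 0 and 0.0408, both gastrulation genes, were low. Of 15 foregut genes 12 were expressed, led by Cldn6, of embryonic epithelia, at 53.8 and 56.2 RPKM. Hhex, of foregut and vessels, was at 5.21 and 6.19 RPKM and Pax9, of the pharyngeal pouches, at 3.71 and 3.26. Pluripotency genes were at low level apart from those shared with neural progenitors, with Pou5f1 at 2.76 and 2.23 RPKM and Nanog at 0.307 and 0.347.

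Ligand transcripts stood lower than those of their receptors in several pathways. Of 19 Wnt ligands 10 were expressed, 52.6% and near the 47.8% of all symbols, with a median of 1.56 RPKM. Of 19 Wnt receptors and coreceptors 18 were expressed, 94.7%, with a median of 9.88. Wnt1 was the highest ligand. Wnt6, of the surface ectoderm, was at 9.33 and 9.61 RPKM, and Wnt5a, a ligand of planar polarity, at 6.98 and 5.36. Wnt8b, of the forebrain, was at 4.45 and 2.14 RPKM. Among receptors, Fzd2 was at 59.5 and 65.7 RPKM, Fzd7 at 48.8 and 64.0, and the planar polarity receptor Ptk7 at 46.9 and 51.9. The coreceptors Lrp5 and Lrp6 were at 21.9 and 22.9 and at 15.8 and 17.2 RPKM. Of the secreted inhibitors, Sfrp1 was at 62.7 and 65.1 RPKM and Sfrp2 at 31.2 and 27.8, above every Wnt ligand. Sfrp4 was unlike its relatives, at 0.152 and 8.02 RPKM.

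**Figure D3:**
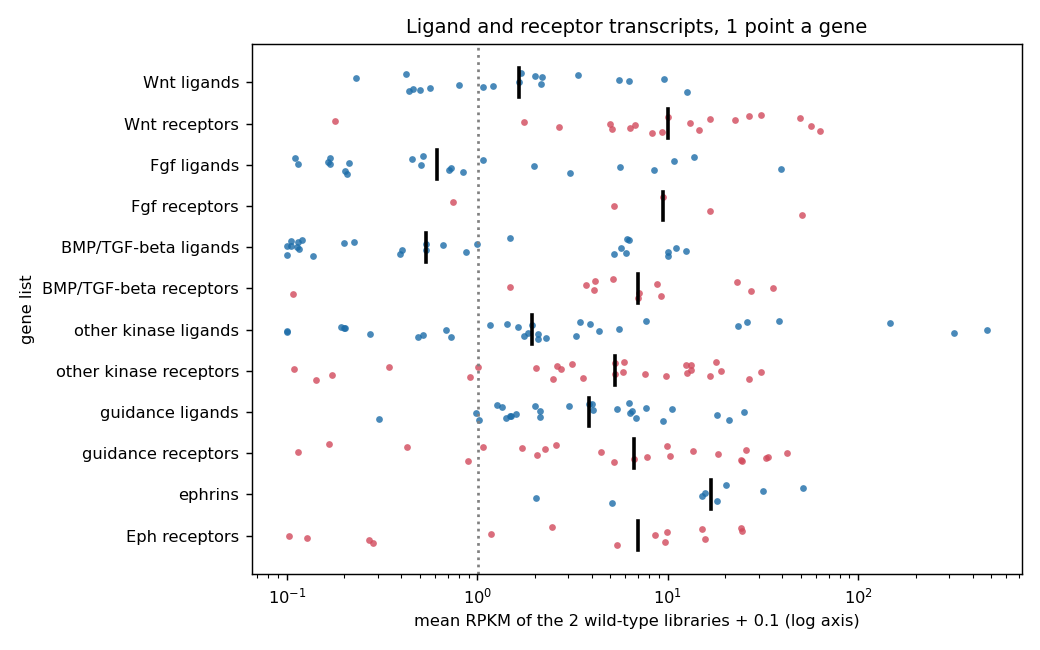
Mean RPKM of the 2 wild-type libraries, + 0.1 on a log axis, for ligands (blue) and receptors (red) of 6 signalling systems. Each point is a gene, black bars are list medians and the dotted line is the median of all 24062 symbols at 0.906 RPKM; ligand medians lie under receptor medians except for the ephrins, at 16.8 against 6.89 RPKM.

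Fgf signalling showed the same shape. Of 22 ligands 7 were expressed, 31.8% beside 47.8% of all symbols, with a median of 0.52 RPKM. Of 5 receptors 4 were expressed, with a median of 9.40. Fgf15, of the midbrain and forebrain, was at 41.4 and 37.3 RPKM, above Fgf8. Fgf3, of the hindbrain and pharynx, was at 11.8 and 9.68 RPKM, and Fgf17, of the isthmus, at 5.99 and 5.03. Fgf13, which is not secreted, was at 8.40 and 8.43 RPKM. Fgfr1 was the main receptor, at 51.2 and 50.1 RPKM, ahead of Fgfr2 at 18.7 and 14.5 and Fgfr3 at 5.25 and 5.03. Fgfr4 was at 1.11 and 0.181 RPKM.

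In the BMP and TGF-beta family 10 of 28 ligands were expressed, 35.7% beside 47.8% of all symbols, with a median of 0.44 RPKM. Of 13 receptors 12 were expressed, 92.3%, with a median of 6.87. Bmp7 was at 13.1 and 11.8 RPKM, Gdf10 at 10.004 and 11.9, and Bmp5 at 11.5 and 8.39. Bmp4, of the surface ectoderm and roof plate, was at 7.16 and 4.71 RPKM. The type I receptor Bmpr1a was at 36.2 and 35.4 RPKM, against 1.18 and 1.59 for Bmpr1b. The activin receptor Acvr2b was at 26.8 and 27.5 RPKM, and Tgfbr1 at 22.8 and 23.5. Antagonists were abundant, with Fst, which binds activin, at 34.3 and 45.4 RPKM, and Twsg1 at 25.2 and 26.2. Nog, of the roof plate and notochord, was at 4.46 and 2.49 RPKM, and Chrd at 0.777 and 1.23. Nodal, Lefty1 and Lefty2 lay near the floor in both heads, the last at 0 and 0.0116 RPKM.

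Hedgehog receptors and effectors stood above the ligands. Of 16 pathway genes 13 were expressed, with a median of 13.9 RPKM. Smo, the signal transducer, was at 81.2 and 82.3 RPKM, and the receptor and target gene Ptch1 at 37.2 and 50.9. The inhibitor Sufu was at 32.5 and 30.5 RPKM. Of the effectors, Gli3 was at 30.3 and 29.8 RPKM, Gli1 at 15.4 and 17.3, and Gli2 at 16.1 and 15.3. Shh was the expressed ligand, while Ihh, at 0.0397 and 0.105 RPKM, and Dhh, at 0.0103 and 0.0722, were not. Notch genes were expressed in 9 of 10 cases: Notch3 at 22.3 and 24.2 RPKM, Jag1 at 19.6 and 24.9, and Dll1, the ligand of early neurons, at 6.12 and 5.2.

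Retinoid genes, 17 of 19 expressed with a median of 9.75 RPKM, were led by binding proteins. Crabp1, which carries retinoic acid in the cytoplasm and is strong in crest and hindbrain, was at 566 and 464 RPKM, and Crabp2 was at 290 and 207. Of the degrading enzymes beside Cyp26c1, Cyp26a1 was at 9.21 and 10.3 RPKM and Cyp26b1 at 3.07 and 4.27. Aldh1a2, the main synthesising enzyme of the somites, was at 8.79 and 4.75. Rarb, a receptor that retinoic acid induces, was at 5.23 and 2.54 RPKM. Rarb, Aldh1a2 and the Hox genes of groups 1 to 4 were all higher in replicate 1, though Hoxb1 was nearly level at 1.06-fold. The relation between them was not tested.

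Other growth factors were led by heparin-binding and insulin-like ligands. Mdk was at 516 and 438 RPKM, Igf2 was given above, and Ptn was at 143 and 151. Vegfa, the vessel growth factor, was at 27.2 and 25.1 RPKM, and Pdgfa, the ligand of Pdgfra, at 24.5 and 22. Among the listed growth factor receptors Igf2r, which clears Igf2 and is not a kinase, was at 31.0 and 30.4 RPKM. The kinase receptor Igf1r was at 11.6 and 13.4 RPKM. Ins1 and Ins2 had 0 reads in both heads. Ephrins stood above their receptors, with 8 of 8 expressed at a median of 16.8 RPKM, against 9 of 14 Eph receptors at a median of 6.89. Efnb2 was at 46.3 and 55.7 RPKM, and the receptors Ephb2 and Ephb4 at 23.8 and 24.8 and at 23.8 and 24.7. Epha4, of the same rhombomeres as Egr2, was at 15.6 RPKM in each head. Guidance genes were expressed in 23 of 27 cases for ligands and 18 of 23 for receptors, among them Plxnb2 at 40.7 and 43.5 RPKM and Sema4c at 23.4 and 26.6.

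Over all expressed genes the libraries were close. Levels of 11506 genes gave a Spearman correlation across genes of 0.988 and a Pearson correlation of log2(RPKM + 0.1) of 0.988; genes are not independent replicates, and no p is given. The median absolute log2 ratio was 0.09, and 85.4% of the genes were within 1.2-fold. The common biological coefficient of variation, which removes counting error, was 0.197 over 14224 genes. Precision rose with level. From 1 to 3 RPKM 7.84% of 2028 genes were over 2-fold apart, from 3 to 10 RPKM 3.24% of 3522, from 10 to 100 RPKM 0.708% of 5647, and at 100 RPKM or more 0.593% of 674. Counting alone gives a log2 SD of 0.15 at the median gene of the lowest range, where the median absolute log2 ratio was 0.21. In all, 317 of 11871 genes with a mean of at least 1 RPKM were over 2-fold apart, 2.67%.

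**Figure D4:**
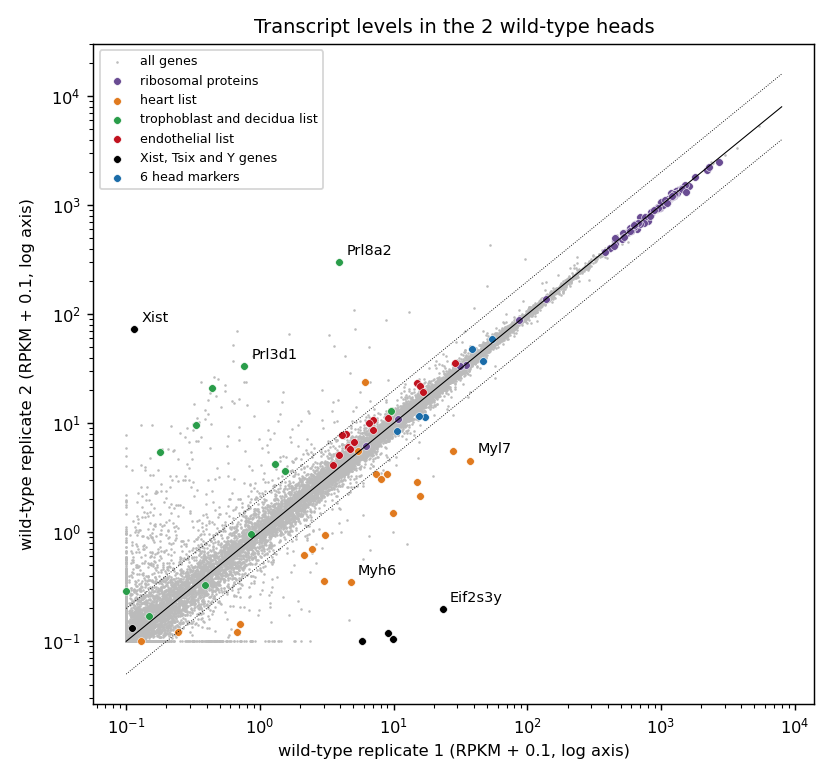
Level of every gene in wild-type replicate 1 (x) and replicate 2 (y), RPKM + 0.1 on log axes. The solid line is equality, the dotted lines 2-fold, and coloured points are genes of the named lists; most genes follow the line, while Xist and the prolactins lie far above it and Eif2s3y, Myl7 and Myh6 far under it.

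Sex-linked genes stood apart between the heads. Xist, the RNA that coats the inactive X chromosome, was at 0.0149 RPKM in replicate 1 (11 reads) and 73.4 in replicate 2 (46203 reads). The Y-linked genes went the other way, with Eif2s3y at 23.2 and 0.0965 RPKM, Kdm5d at 9.81 and 0.00521 (2212 reads and 1), Ddx3y at 8.98 and 0.0184, and Uty with 1222 reads and 0. Replicate 1 therefore had Y-linked transcripts with next to no Xist, and replicate 2 the reverse. Sex and library cannot be told apart here.

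Heart genes were high in replicate 1. Of 20 heart genes 16 had a mean of at least 1 RPKM, and 13 of these were over 2-fold higher in replicate 1, beside 0.632% of all genes. Some of the 16, such as Myh6, reached that mean only through replicate 1, so the filter favours this count. Of the 11 at 1 RPKM or more in both libraries, 8 were higher in replicate 1 and 3 in replicate 2. Myl7 was 8.43-fold higher (95% exact binomial interval of the count ratio 6.80 to 10.6, which covers counting error only). Actc1, cardiac actin, was at 27.9 and 5.43 RPKM, Tnnt2, a troponin, at 15.7 and 2.03, and Myl4 at 14.9 and 2.77. Myh6, the atrial myosin heavy chain, was at 4.69 and 0.248 RPKM. Nkx2-5, the cardiac factor that pharyngeal tissue also expresses, was at 7.29 and 3.33 RPKM. Mef2c, at 5.28 and 5.42 RPKM, was level, and Hand1 and Hand2 were higher in replicate 2. The list summed to 167 and 70.3 RPKM.

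Genes were ranked by ratio with 0.1 RPKM added to each library, passing over predicted genes without a common name. The 10 most in excess in replicate 1 were the 4 Y-linked genes and Pyy, Meox1, Myh6, Tdgf1, Ankrd1 and Mybpc3. Meox1 was 18.4-fold higher (13.9 to 24.7). Tdgf1, an early cofactor of Nodal that the heart outflow tract also uses, was at 2.22 and 0.0887 RPKM. Mybpc3, a sarcomere protein of heart muscle, was at 1.92 and 0.0961 RPKM, and Ankrd1, also of heart muscle, at 5.82 and 0.468. Pyy, a gut hormone gene, had 94 reads in replicate 1 and 1 in replicate 2. The somite factor Tcf15, named after its values were seen, was at 5.81 and 1.35 RPKM.

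Several placental and decidual genes were high in replicate 2. Of 12 trophoblast and decidua genes 8 had a mean of at least 1 RPKM, and 7 of these were over 2-fold higher in replicate 2, beside 2.04% of all genes. Some of the 8, such as Prl3d1 and Gzmd, reached that mean only through replicate 2, so the filter favours this count. The 4 at 1 RPKM or more in both libraries were all higher in replicate 2, with a median log2 ratio of -1.45. The list summed to 18.3 RPKM in replicate 1 and 391 in replicate 2. Prl8a2, a prolactin relative of the decidua, took most of it, at 3.83 and 300 RPKM (78.4-fold, 66.6 to 92.8). Prl3d1 was 50.6-fold higher (33.8 to 79.4), and Prl2c2, a proliferin of giant cells, was at 0.338 and 21 RPKM. The granzymes Gzmd and Gzme, of uterine natural killer cells, were at 0.233 and 9.57 and at 0.0789 and 5.4 RPKM. All 26 prolactin family genes together summed to 5.87 and 421 RPKM, and 8 had a mean of at least 1 RPKM. Each of the 8 was over 2-fold higher in replicate 2, but the filter all but fixed that count. Only 1 of the 26, Prl8a2, reached 1 RPKM in both libraries, and the others of the 8 passed through replicate 2 alone. The trophoblast regulators did not follow: Ascl2 was at 0.286 and 0.230 RPKM, Elf5 at 0.756 and 0.861, and Hand1 at 9.41 and 12.8. Tpbpa, of the spongiotrophoblast, was at 0 and 0.187 RPKM. Several family members are near copies of each other, so single values are uncertain.

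Ranked in the same way, the 10 genes most in excess in replicate 2 were Xist, Erv3, Fabp4, Prss29, Prl8a2, Prl2c3, Sprr2h, Psca, Mt4 and Prl7a1. Without the added 0.1 RPKM the order differs, with Hoxa11 at 341-fold beside 78.4-fold for Prl8a2. Fabp4, a fatty acid binding protein of fat and vessel cells, was at 0.530 and 52.5 RPKM. Prss29, a uterine gland protease, had 0 reads and 321 reads. Prl7a1 was at 0.354 and 26.6 RPKM, and Mt4, a metallothionein of stratified epithelium, had 0 and 80 reads. Named after their values were seen, Cyp11a1, which makes pregnenolone, was at 0.534 and 36.9 RPKM, and A2m, a protease inhibitor, at 0.795 and 41.1.

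Vessel genes and embryonic globins were higher in replicate 2 by smaller steps. All 15 endothelial genes were expressed and all 15 were higher in replicate 2, beside 5328 of the 11506 expressed genes, with sums of 135 and 184 RPKM and a median log2 ratio of -0.42. Cdh5, the vascular cadherin, was at 14.8 and 23.5 RPKM, Kdr, the Vegfa receptor, at 15.7 and 21.9, and Pecam1 at 4.33 and 7.81. None of the 15 was over 2-fold apart. Of the embryonic globins, Hba-x was at 138 and 198 RPKM, Hbb-bh1 at 93.2 and 133, and Hbb-y at 34.0 and 47.3. The adult Hba-a1 and Hbb-bt had 0 reads in both, while Hba-a2 had 0 and 5 reads and Hbb-bs 0 and 3. Reads without a unique alignment were not counted, so the adult globin levels are uncertain. All 6 expressed erythroid genes were higher in replicate 2, with a median log2 ratio of -0.51. Alas2, which starts heme synthesis in red cells, was 5.13-fold apart, at 1.04 and 5.35 RPKM. White cell genes were low, but several were higher in replicate 2 by larger steps. Ptprc was at 0.00436 and 0.266 RPKM, Csf1r at 0.106 and 0.919, and Fcer1g at 0.480 and 3.20. Spi1 was nearly level, at 0.164 and 0.192 RPKM.

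Genes of yolk sac endoderm were low in both heads. Of 22 visceral endoderm genes 4 were expressed, 18.2% beside 47.8% of all symbols, with a median of 0.29 RPKM. The list summed to 18.9 and 22 RPKM. Lrp2, which neural epithelium also makes, gave much of the sum at 9.64 and 9.98 RPKM. The defining markers Afp, at 0.0815 and 0.328 RPKM, Apoa1, at 0.246 and 0.951, Ttr, at 0.298 and 0.6997, and Hnf4a, at 0.0501 and 0.0653, were all under 1 RPKM. Spp2 and Apoc3 had 0 reads in both.

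**Figure D5:**
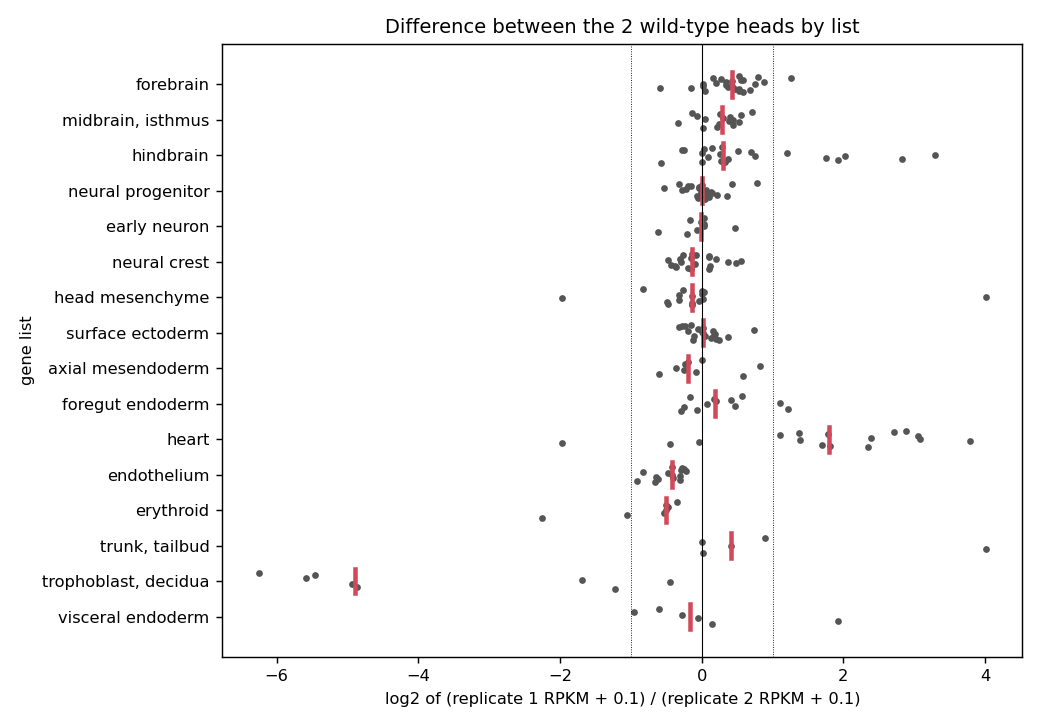
Log2 ratio of replicate 1 to replicate 2, with 0.1 RPKM added to each, for list members with a mean of at least 1 RPKM. Each point is a gene, red bars are medians, and dotted lines mark 2-fold; the median is 1.8 for the 16 heart genes, -4.90 for the 8 trophoblast and decidua genes, 0.43 for the 25 forebrain genes and 0.01 for the 24 neural progenitor genes. Some drawn genes reach the mean through 1 library only. Over members at 1 RPKM or more in both, the medians are 1.39 for 11 heart genes and -1.45 for 4 trophoblast and decidua genes.

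Start-site sequence is shown for 4 genes that stand for these patterns: Sox2 for the even neural transcripts, Myl7 for the heart excess of replicate 1, Prl3d1 for the placental excess of replicate 2, and Hba-x for the smaller excess of embryonic globins. They are the 250 bases before each RefSeq start on GRCm38.p6, 5′ to 3′ in the direction of the gene, and capitals mark every CG.

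Sox2, GRCm38.p6 chr3:34649745-34649994, plus strand: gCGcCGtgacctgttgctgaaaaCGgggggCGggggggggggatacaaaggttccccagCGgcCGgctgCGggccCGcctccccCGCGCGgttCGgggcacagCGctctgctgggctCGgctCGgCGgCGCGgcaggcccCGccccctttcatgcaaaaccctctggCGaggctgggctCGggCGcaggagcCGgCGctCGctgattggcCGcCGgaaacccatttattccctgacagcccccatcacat
Myl7, GRCm38.p6 chr11:5898783-5899032, minus strand: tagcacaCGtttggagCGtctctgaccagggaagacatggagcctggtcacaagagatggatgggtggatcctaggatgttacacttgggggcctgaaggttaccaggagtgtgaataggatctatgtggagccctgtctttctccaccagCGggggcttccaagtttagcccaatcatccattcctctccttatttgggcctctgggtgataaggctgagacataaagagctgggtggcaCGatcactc
Prl3d1, GRCm38.p6 chr13:27093939-27094188, plus strand: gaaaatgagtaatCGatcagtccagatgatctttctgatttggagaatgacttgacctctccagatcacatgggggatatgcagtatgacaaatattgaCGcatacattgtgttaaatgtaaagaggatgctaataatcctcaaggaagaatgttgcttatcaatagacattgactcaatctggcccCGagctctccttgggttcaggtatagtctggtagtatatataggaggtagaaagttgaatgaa
Hba-x, GRCm38.p6 chr11:32276350-32276599, plus strand: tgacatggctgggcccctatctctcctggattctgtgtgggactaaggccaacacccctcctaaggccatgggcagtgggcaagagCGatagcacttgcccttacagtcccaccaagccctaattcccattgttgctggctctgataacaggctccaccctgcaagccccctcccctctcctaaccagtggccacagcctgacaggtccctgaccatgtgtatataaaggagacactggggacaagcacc

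The Sox2 stretch held 27 CG pairs, the one for Myl7 held 4, that for Prl3d1 held 3 and that for Hba-x held 1. The motif CG reads the same on both strands. Over 32851 RefSeq start records of the same length the median was 6, and 8.56% had at least as many as Sox2, 62.2% as Myl7, 71.0% as Prl3d1 and 92.1% as Hba-x. The letters TATAAA, searched on both strands and sharing no base with a CG, were found in the Hba-x stretch and in 12.4% of all records, and in none of the other 3 stretches. These are descriptions of 4 chosen windows and were not related to expression level.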

How the data were processed

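RNA was measured by polyA-selected, stranded paired-end sequencing on a HiSeq 2500, per the labels' protocols. The submitters' processing notes name TopHat2 2.0.11, HTSeq 0.6.1p2, Trim Galore 0.4.0, edgeR 3.8.6 and the mm10 build. Which annotation and strand setting the counting used is not given in the sources used here. Overlapping, antisense and near-identical genes are therefore uncertain. For every library the deposited files hold counts of reads over 24062 symbols, with 5 summary lines not used as genes. A table deposited by the authors gives RPKM under the sample titles. In replicate 1, 10.4% of read pairs lay in no feature and 1.08% were ambiguous, and in replicate 2 9.12% and 1.08%. The other columns of that table gave no levels and entered only the matching of files, the library scaling and the implied gene lengths.

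The deposited count file bearing the title of wild-type replicate 2 is attached to another sample, and the file attached to replicate 2 bears a mutant's title. RPKM columns and count files were joined by title. The column of replicate 2 had the same genes at 0 as the file with its title, and 100% of 12258 gene ratios matched within 0.1%. Against the attached file 1646 genes differed in being 0 and 0.356% of ratios matched. Lengths implied by count and RPKM were whole numbers within 0.02 bases for 100% of 19272 genes.

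Values are the authors' RPKM as deposited. From them and the counts, levels, sums, ranks and ratios were computed with Python 3.11.15 and pandas 2.3.3, with 0.1 RPKM added before logs. The threshold of expression was 1 RPKM in both libraries, and genes apart differed over 2-fold with a mean of at least 1 RPKM. Count ratios have exact binomial 95% intervals, which cover counting error only, as do floors of 3 reads. The coefficient of variation came from edgeR 4.0.16 with an intercept only, tested on simulated data. The labels do not say whether each library is 1 head or how litters were used, so the spread may be in part technical.

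Named genes were the 6 markers, the 20 highest genes and up to 6 of the highest members of each list. Expressed Hox genes and defining markers of other tissues were also named. So were the 10 most unequal genes in each direction, ranked with 0.1 RPKM added and with at least 50 reads in the higher library. Predicted genes without a common name were passed over in that ranking. Others were chosen after their values were seen. The members and all gene lists were chosen with earlier results of these data known. Alternatives were other thresholds, RPKM recomputed on library totals, the attached count file, and each library alone. Gene positions are from GENCODE M21 and start-site sequences from RefSeq. A few listed genes are counted in their lists but not reported here by name.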

Additional observations from a re-analysis of the deposited data

How the results depend on the processing

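The number of expressed genes, and the total of expressed list members over all lists, stayed within 1.5 times of the main value under every alternative run; single lists did not. The Spearman correlation, 0.988, was 0.977 over all genes with a read and 0.939 with the count file attached to replicate 2. The count of genes apart, 317, was 96 among genes with a mean of at least 5 RPKM, 608 at over 1.5-fold and 1469 with the attached file. The share of the 100 highest genes was 28.2% of RPKM and 14.4% of reads. The coefficient of variation was 0.197 and, with the attached file, 0.386. For the attached file, whose title is a mutant's, the cause was not tested. Of 294 counts of expressed list members under these alternatives 259 were within 1.5 times of the counts given and 35 were not, among them the forebrain list, at 15 in place of 23 with the attached file, the Hox genes, at 8 without replicate 2 and 6 without replicate 1 in place of 3, and the visceral endoderm genes, at 12 in place of 4 where 10 reads in both libraries sufficed. The Wnt ligands were at 5 in place of 10 under a threshold of 2 RPKM and at 18 with 10 reads. No paired analysis was possible because 1 group was described and no groups were compared. With 2 libraries, differences between them cannot be told apart from the spread between heads.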

Other observations

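Genes of rapid stress and dissection responses were at moderate or low level in both wild-type heads, with 8 of 12 expressed and a median of 2.45 RPKM. Ier2, an immediate early gene, was at 39.0 RPKM in replicate 1 and 47.3 in replicate 2, and Ddit4, which low oxygen and starvation induce, at 31.4 and 25.1. Jun was at 10.6 and 12.4 RPKM. Fos, which cells switch on within minutes of a stimulus, was at 0.522 and 2.18 RPKM, and Egr1 at 1.58 and 3.56, both higher in replicate 2. The heat-inducible Hspa1a, at 0.147 and 0.163 RPKM, and Hspa1b, at 0.587 and 0.628, were under 1 RPKM. All 18 listed constitutive and organelle chaperones were expressed, with a median of 370 RPKM. That list was drawn up with earlier results of these data known, so its count is no independent result.

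Cytoskeletal genes, in a list drawn up after values were seen, had a median of 226 RPKM, and 21 of 22 were expressed. The cytoplasmic actins Actb and Actg1 were at 1329 and 1414 and at 1344 and 1384 RPKM. Tubb5, a widely made beta tubulin, was at 1143 and 1133 RPKM, far above the neuronal Tubb3 given earlier. Smooth muscle actin Acta2, made in early heart muscle too, was at 27.9 and 11.8 RPKM, with replicate 1 higher as for cardiac actin.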
